A study of Homo sapiens with 9 samples.

Results

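The genes examined were 44 ribosome biogenesis factors, the proteins that transcribe, modify, cut and assemble ribosomal RNA, among 21606 genes tested. They were listed by name, and each was read from array probes whose stated target is one of its RefSeq transcripts. No measured response entered that rule, although the list was chosen with earlier results of these data known. RNA was measured in A2780, an established human ovarian carcinoma cell line, on single-colour Agilent arrays. The 3 groups were untreated cells, cells given 8 nM DIG-MSK and cells given 80 nM DIG-MSK, all taken at 24 h. Each group had 3 arrays, described as independent biological replicates, 9 in all. A single cell line and a single time limit what the groups can stand for, and because RNA came from whole cultures, fewer cells of a kind and less RNA per cell cannot be told apart. DIG-MSK is an analogue of mithramycin, an antibiotic that binds DNA rich in guanine and cytosine.

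Ribosomes are built in the nucleolus, where RNA polymerase I copies the ribosomal genes into a long precursor RNA. Small nucleolar ribonucleoproteins modify that precursor, and large sets of assembly factors then fold it, cut it and load it with ribosomal proteins along separate paths for the small and the large subunit. Many of these factors are made in proportion to cell growth, and many of their genes are known targets of the transcription factor MYC. The 44 factors comprised 2 RNA polymerase I factors and 4 proteins of box C/D ribonucleoproteins. A further 5 were of the box H/ACA kind (with NOLC1, a chaperone of both). The rest were 4 nucleolar proteins, 15 small subunit factors and 14 large subunit factors. Figures label the 4 as abundant nucleolar proteins, a name not taken from these data.

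All 44 factors were well above background on all 9 arrays, so none was lost to the filter on dim probes, and no gene spot was saturated. Levels are log2 intensities relative to the 75th percentile of their own array, and a value is compared only with other values of the same probe. EPCAM, KRT8, KRT18, KRT7 and VIM were well above background on all 9 arrays, whereas CDH1 and WT1 were on none, so 5 of 9 markers expected of the line were seen throughout. Of 12 markers of leukocytes, endothelium and fibroblasts, 6 were above background on all arrays and 2 (PECAM1 and FAP) on none. Of the 12, 8 were among the genes tested. The summed linear level of these 8 lay between 0.954 and 1.17 in untreated cells, 1.02 and 1.15 at 8 nM, and 0.932 and 1.02 at 80 nM. At 80 nM 1 of the 8 was called higher and 2 lower, and the part of these markers in the results was not tested. The untreated and 8 nM arrays lay on the same slide and the 80 nM arrays on another. The comparison of 8 nM with untreated cells is therefore within a slide, while in the other comparisons the effect of 80 nM and the slide cannot be told apart. Array 2 of the 8 nM group stood apart for these genes: the median of the 44 factors, relative to the untreated mean, was 0.04 there and −0.25 and −0.24 on the other 8 nM arrays. The counts at 8 nM and several of the 8 nM changes are also given without it. Array 2 was singled out by the values of these same factors, whose median falls when it is left out. The adjusted p values of those fits are therefore descriptions and not independent tests.

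**Figure D1:**
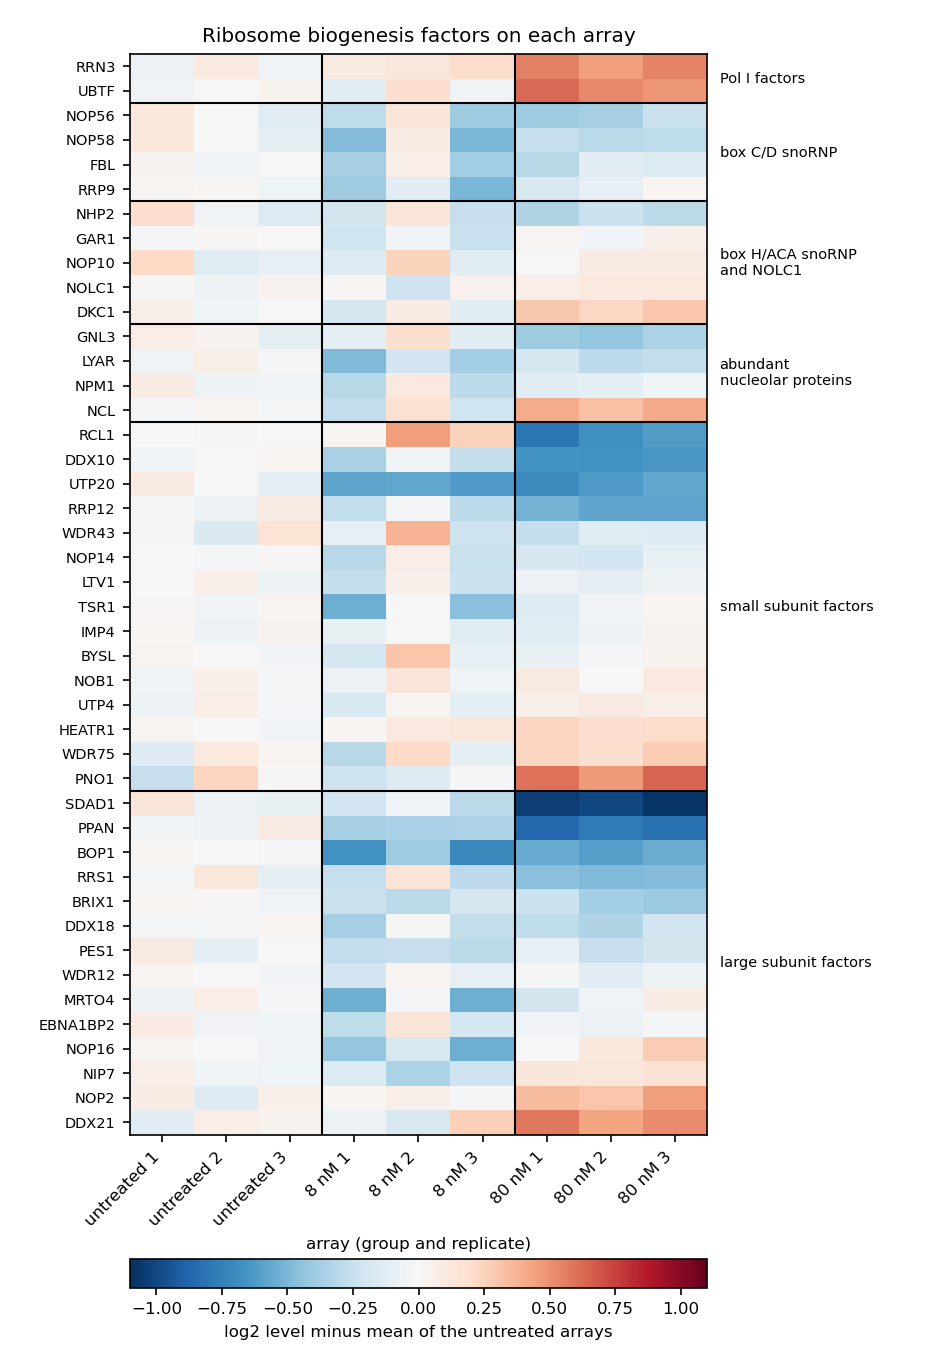
Level of each of the 44 factors (rows, grouped by role and ordered by the change at 80 nM) on each of the 9 arrays (columns), as log2 level minus the mean of the untreated arrays, blue lower and red higher. In the 80 nM columns SDAD1 and PPAN are the deepest blue and PNO1, UBTF, RRN3 and DDX21 the deepest red. The second 8 nM column is paler or redder than its neighbours in most rows.

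Most ribosome biogenesis factors moved little under DIG-MSK. A gene was called when it changed at least 1.5-fold upward or to at most 0.67-fold, with an adjusted p under 0.05 over all genes tested. At 8 nM, 2 of the 44 fell (UTP20 and BOP1) and none rose, where 1.48% of all genes tested were called lower and 3.74% higher. At 80 nM, 5 fell (SDAD1, PPAN, RCL1, DDX10 and UTP20) and none rose, where 16.2% of all genes were called lower and 18.5% higher. Hence 11.4% of the factors were called at 80 nM against 34.6% of all genes. This contrast narrowed in some alternatives. Of 44 factors and 21606 genes, 8 and 4654 were called with normexp and 8 and 5619 with the authors' log2 values. With spike-in scaling 10 and 6702 were called. In these alternatives the share of factors called lower was near or above that of all genes, so lower calls showed no such contrast. The counts were 5 and 7483 in the reported fit, and 3 and 7391 with the mean of a gene's probes. Lower calls were 7 of the 8 factors with normexp, where 50.9% of genes called were lower, and all 10 with spike-in scaling, where 73.3% were. Both treatments share the untreated arrays, so their counts are not independent of each other. With an unadjusted p in place of the adjusted p, 2 factors passed at 8 nM (7.31% of all genes) and 5 at 80 nM (35.4%).

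The size of the changes was small beside that of all genes. At 80 nM the median size was 0.24 on the log2 scale for the 44 factors and 0.42 for all genes, and the signed medians were −0.07 and 0.08. At 8 nM the median sizes were 0.15 and 0.19, and the signed medians −0.14 and −0.06. For 28 of the 44 factors (63.6%) the 95% confidence interval of the change at 80 nM lay wholly inside the fold limits, compared with 36.5% of all genes. At 8 nM this held for 37 factors (84.1%), compared with 62.0% of all genes, and without array 2 of the 8 nM group for 36 (81.8%), compared with 63.8%. These shares describe the lists and were not tested against each other. The 44 factors were well above background on all 9 arrays, while the genes tested needed this in at least 1 group. With the filter on all 9 arrays, 5 factors and 5791 of 18644 genes were called at 80 nM. Sizes and intervals were not worked out for that set, so the part of probe brightness in them was not tested.

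**Figure D2:**
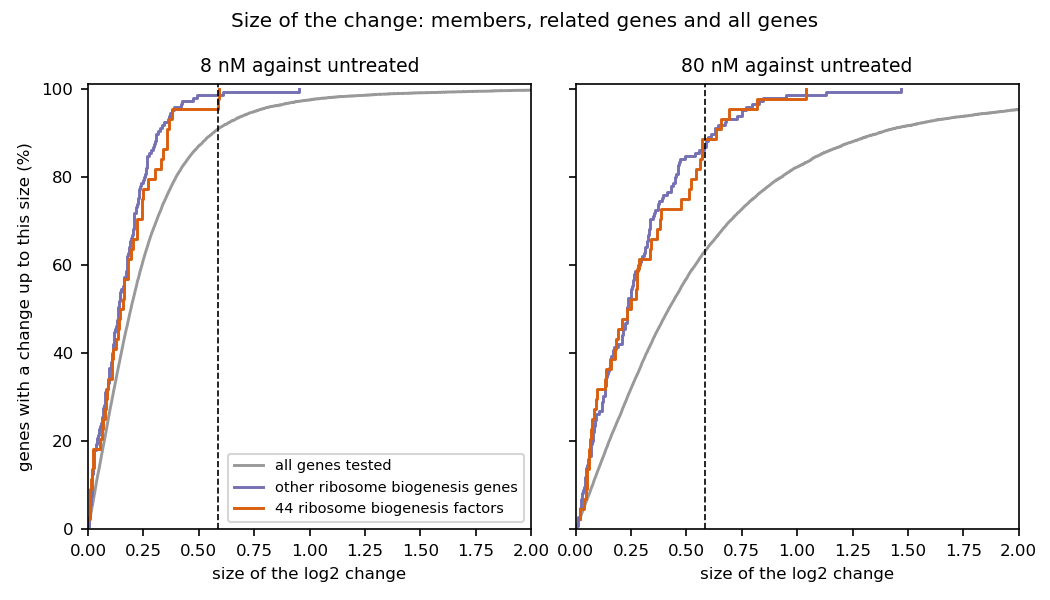
Percent of genes (vertical axis) whose change was no larger than a given log2 size (horizontal axis), at 8 nM (left) and 80 nM (right), for all 21606 genes tested, 145 other ribosome biogenesis genes and the 44 factors. The dashed line is the 1.5-fold limit. At 80 nM the curves of the 2 ribosome biogenesis lists lie close together and to the left of that of all genes, with medians of 0.23 and 0.24 against 0.42.

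At 8 nM the direction was mostly downward: 35 factors (79.5%) were lower than in untreated cells and 9 higher, where 57.9% of all genes were lower. Without array 2 of the 8 nM group the counts were 38 (86.4%) and 6, where 59.7% of all genes were lower. UTP20, a large scaffold protein of the small subunit processome, had log2 levels of 2.19, 2.09 and 1.99 in untreated cells, 1.51, 1.52 and 1.47 at 8 nM, and 1.39, 1.47 and 1.52 at 80 nM. Every treated array lay below every untreated array, and the 8 nM and 80 nM arrays overlapped. The change was −0.59 ± 0.08 (SE) at 8 nM (0.664-fold, limma, Benjamini-Hochberg adjusted p = 0.0027) and −0.63 ± 0.08 at 80 nM (0.645-fold, adjusted p = 0.0002). BOP1, a subunit of the complex with PES1 and WDR12 that matures the large subunit, had levels of 3.56, 3.53 and 3.52 in untreated cells, 2.87, 3.15 and 2.83 at 8 nM, and 2.98, 2.92 and 2.99 at 80 nM. Here too the treated arrays all lay below the untreated ones, and the 2 treated groups overlapped. The change of BOP1 was −0.59 ± 0.09 at 8 nM (0.665-fold, adjusted p = 0.0061) and −0.57 ± 0.09 at 80 nM (0.674-fold, adjusted p = 0.00099), which is just short of the fold limit.

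With the adjusted p alone and no fold limit, 4 factors were lower at 8 nM (4.96% of all genes) and none higher (7.26% of all genes). The additional ones were LYAR, a nucleolar zinc-finger protein, at −0.36 ± 0.09 (adjusted p = 0.032), and PPAN, a large subunit factor, at −0.36 ± 0.07 (adjusted p = 0.017). At an unadjusted p under 0.05, 12 factors were lower (15.8% of all genes) and none higher (13.9% of all genes). Without array 2 of the 8 nM group the same 2 counts by adjusted p were 19 lower and 0 higher, and the median of the 44 moved from −0.14 to −0.23. The share of all genes by adjusted p was not worked out for that fit, so the 19 cannot be set against it. With the fold limit 2 factors and 1143 genes were called in that fit, against 2 and 1128 with all arrays. By adjusted p alone, 3 factors were lower and none higher without 8 nM array 1, and the same without 8 nM array 3. The shares of all genes were not worked out for these fits either. The calls of UTP20 and BOP1 sat just inside the fold limit: neither was called (0 of 44) without untreated array 1 or without 8 nM array 3, and 1 of the 2, UTP20, was called without 8 nM array 1. Neither was called with normexp background correction, with quantile, median or spike-in scaling, or with the authors' log2 values. In those alternatives UTP20 lay between −0.57 and −0.52 and BOP1 between −0.58 and −0.51, and the adjusted p was above the threshold with spike-in scaling alone (0.48 for UTP20 and 0.39 for BOP1).

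SDAD1, a factor needed for export of the large subunit, changed most at 80 nM. Its levels were 2.04, 1.86 and 1.83 in untreated cells, 1.70, 1.87 and 1.62 at 8 nM, and 0.88, 0.91 and 0.83 at 80 nM. The 80 nM arrays lay below all others, while the 8 nM and untreated arrays overlapped. The fall was to 0.487-fold (−1.04 ± 0.09, adjusted p = 3e-05). A second SDAD1 probe did not fall, as described with the other probes.

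PPAN, a Brix-domain protein of the early large subunit, stepped down with the concentration. Its levels were 0.59, 0.57 and 0.72 in untreated cells, 0.26, 0.27 and 0.28 at 8 nM, and −0.24, −0.15 and −0.19 at 80 nM. The 3 groups did not overlap and followed the order of the concentration. PPAN fell to 0.566-fold at 80 nM (−0.82 ± 0.07, adjusted p = 2.7e-05), and the 80 nM arrays were lower than the 8 nM arrays by −0.47 ± 0.07 (adjusted p = 0.00073). A read-through transcript joins PPAN to the neighbouring receptor gene P2RY11, and an array probe may not tell the 2 RNAs apart.

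RCL1, a protein related to RNA cyclases that works in cleavage of the precursor toward the small subunit, had levels of 3.26, 3.27 and 3.26 in untreated cells, 3.29, 3.73 and 3.52 at 8 nM, and 2.47, 2.59 and 2.65 at 80 nM. All 8 nM arrays were above the untreated ones and all 80 nM arrays below them. At 8 nM the change was 0.25 ± 0.11 (adjusted p = 0.18), or 0.14 ± 0.09 without array 2 of that group (adjusted p = 0.31), and at 80 nM RCL1 fell to 0.618-fold (−0.69 ± 0.11, adjusted p = 0.00087). Averaging its 2 probes gave −0.58 at 80 nM, and the gene was then not called.

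DDX10, a DEAD-box RNA helicase of small subunit assembly, had levels of 3.47, 3.50 and 3.53 in untreated cells, 3.14, 3.46 and 3.24 at 8 nM, and 2.85, 2.83 and 2.86 at 80 nM. The 3 groups did not overlap and were ordered by concentration, although 8 nM array 2 was only just below the untreated arrays. DDX10 fell to 0.635-fold at 80 nM (−0.66 ± 0.09, adjusted p = 0.00034), and stood at −0.22 ± 0.09 at 8 nM (adjusted p = 0.14). It passed the adjusted p at 8 nM without array 2 of that group (−0.31 ± 0.06, adjusted p = 0.015).

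**Figure D3:**
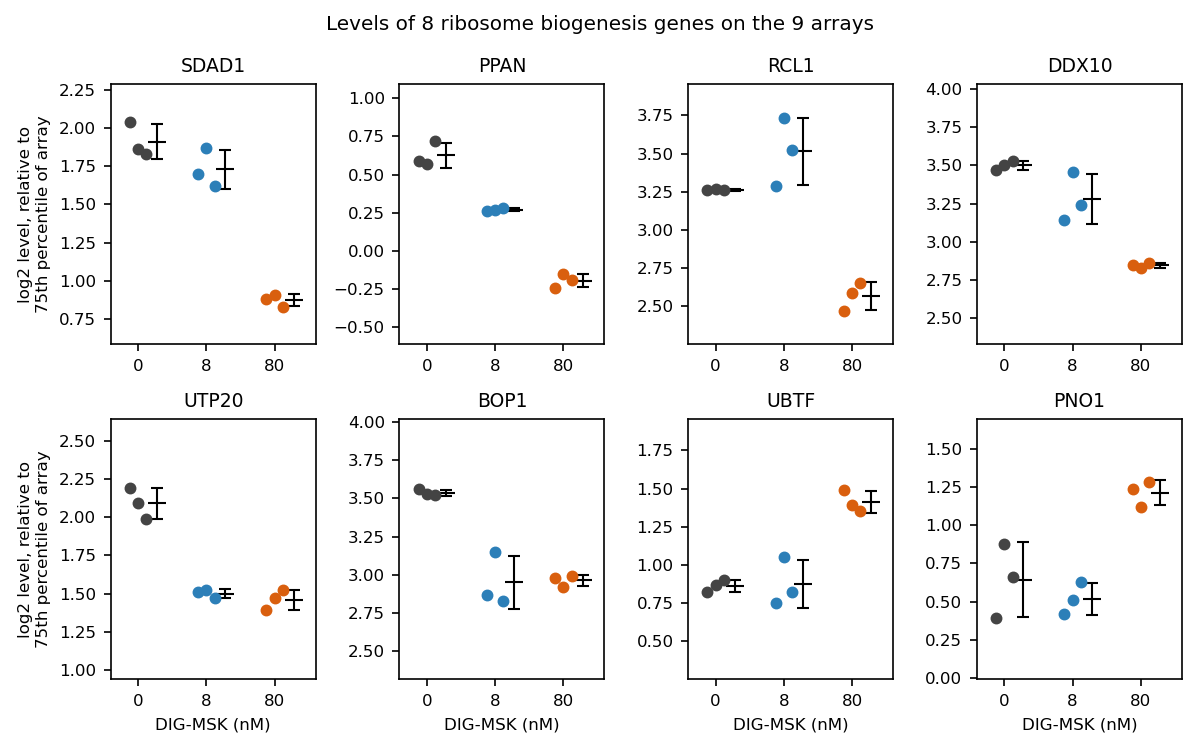
Log2 level relative to the 75th percentile of the array (vertical axes, each spanning the same range) against the DIG-MSK concentration in nM for 8 genes. Points are the 3 arrays of a group and the mark beside them is the mean with its SD. SDAD1, RCL1 and DDX10 dropped at 80 nM, PPAN stepped down at each concentration, UTP20 and BOP1 were already low at 8 nM, and UBTF and PNO1 lay higher at 80 nM (0.55 and 0.57, both short of the 1.5-fold limit).

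With the adjusted p alone, 20 factors differed at 80 nM, 12 lower (25.1% of all genes) and 8 higher (32.6% of all genes). Besides the 5 that fell, those lower were BOP1, RRP12 (−0.56), RRS1 (−0.47), GNL3 (−0.39), BRIX1 (−0.34), DDX18 (−0.27) and LYAR (−0.25). Higher were PNO1 (0.57), UBTF (0.55), RRN3 (0.52), DDX21 (0.51), NCL (0.38), NOP2 (0.37), DKC1 (0.28) and HEATR1 (0.21). Scaling to the 10 spike-in probes moved the median of all genes at 80 nM from 0.08 to −0.20, and none of the 8 was then higher by adjusted p while 12 factors were lower. BOP1 (0.674-fold), RRP12 (0.678-fold) and PNO1 (1.48-fold) were nearest to the limits from outside, and UTP20 (0.645-fold) and DDX10 (0.635-fold) from inside.

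Because the compound binds DNA rich in guanine and cytosine, the promoters of the factors that moved together are shown, as the 250 bases before the start site on the gene's own strand (RefSeq, GRCh38.p14). Windows of 300 bases, 250 before the start and 50 after it, were given for 38 of the 44 factors. Capitals mark the GC box, GGGCGG or CCGCCC, the same box on the other strand, which is the element bound by Sp1, and the E-box CACGTG, a palindrome bound by MYC with its partner MAX. These motifs can share letters with a neighbouring copy. The 5 that fell come first, then UBTF, which was higher at 80 nM by adjusted p, and NOP10, whose change was 0.06 and whose stretch holds 2 E-boxes.
SDAD1 (chr4:75990946-75991195, minus strand): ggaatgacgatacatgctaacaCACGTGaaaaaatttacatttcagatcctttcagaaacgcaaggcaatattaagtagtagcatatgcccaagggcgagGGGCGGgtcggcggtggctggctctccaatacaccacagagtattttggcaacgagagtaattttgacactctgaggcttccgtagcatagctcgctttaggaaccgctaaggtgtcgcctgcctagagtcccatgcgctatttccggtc
PPAN (chr19:10105973-10106222, plus strand): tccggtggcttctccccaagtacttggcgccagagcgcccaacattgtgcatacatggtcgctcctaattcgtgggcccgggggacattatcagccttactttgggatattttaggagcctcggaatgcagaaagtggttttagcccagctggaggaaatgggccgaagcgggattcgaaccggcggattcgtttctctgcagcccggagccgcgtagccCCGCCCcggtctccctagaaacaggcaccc
RCL1 (chr9:4792694-4792943, plus strand): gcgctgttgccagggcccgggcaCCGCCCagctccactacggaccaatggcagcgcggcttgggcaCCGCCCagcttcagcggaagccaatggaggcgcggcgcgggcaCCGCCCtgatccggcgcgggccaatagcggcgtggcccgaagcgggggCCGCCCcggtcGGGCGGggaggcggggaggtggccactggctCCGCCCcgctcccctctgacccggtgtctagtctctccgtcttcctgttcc
DDX10 (chr11:108664819-108665068, plus strand): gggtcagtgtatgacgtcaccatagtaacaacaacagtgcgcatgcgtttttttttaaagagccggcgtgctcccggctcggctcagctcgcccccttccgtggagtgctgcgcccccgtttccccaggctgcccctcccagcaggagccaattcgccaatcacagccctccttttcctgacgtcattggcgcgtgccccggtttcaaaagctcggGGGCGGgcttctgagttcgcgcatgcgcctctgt
UTP20 (chr12:101279855-101280104, plus strand): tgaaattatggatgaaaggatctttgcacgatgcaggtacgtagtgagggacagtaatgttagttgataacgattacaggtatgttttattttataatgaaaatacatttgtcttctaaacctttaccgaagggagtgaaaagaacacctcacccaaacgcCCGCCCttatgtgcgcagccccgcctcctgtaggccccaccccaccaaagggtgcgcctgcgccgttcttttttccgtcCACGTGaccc
UBTF (chr17:44220883-44221132, minus strand): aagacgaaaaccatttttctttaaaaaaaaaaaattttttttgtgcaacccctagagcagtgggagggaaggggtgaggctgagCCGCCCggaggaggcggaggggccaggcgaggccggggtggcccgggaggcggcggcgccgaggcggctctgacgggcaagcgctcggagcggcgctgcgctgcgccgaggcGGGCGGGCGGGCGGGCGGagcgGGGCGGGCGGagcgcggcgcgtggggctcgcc
NOP10 (chr15:34343137-34343386, minus strand): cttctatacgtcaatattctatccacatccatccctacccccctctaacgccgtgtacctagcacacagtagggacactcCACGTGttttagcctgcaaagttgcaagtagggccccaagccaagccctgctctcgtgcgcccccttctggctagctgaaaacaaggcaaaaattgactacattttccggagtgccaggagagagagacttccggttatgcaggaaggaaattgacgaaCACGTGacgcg

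The GC box was found in the window of each of the 5 factors that fell and in 25 of the 33 others (75.8%), compared with 73.4% of the 11273 genes tested that have a window. The printed stretches hold 1 GC box in SDAD1, PPAN, DDX10 and UTP20, 6 in RCL1 and 7 in UBTF. Beyond the printed stretch, the window of NOP10 holds 1 GC box and that of RCL1 holds 1 E-box. UBTF and PPAN each have another window that is not printed, with 3 and 1 GC boxes. The E-box was found for 21 of the 38 factors (55.3%), compared with 12.2% of all genes tested with a window and 20.8% of the 125 other ribosome biogenesis genes with a window. Among the factors it was present for 3 of the 5 that fell and for 18 of the 33 others (54.5%). By window the E-box stood in 22 of 48 of the factors (45.8%) and in 9.13% of the windows of all genes tested. It stood in 18.3% of the windows of the other ribosome biogenesis genes, and in 7.26% of all 35116 windows, tested or not. The median G+C content was 64.7% in the windows of the factors, 60.0% in those of the 5 that fell and 64.3% over the genes tested. A match of letters is a description and says nothing of binding in these cells.

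The 2 RNA polymerase I factors were higher at 80 nM on the probes used. UBTF, the factor that opens ribosomal gene chromatin for the polymerase, had levels of 0.82, 0.87 and 0.90 in untreated cells, 0.75, 1.05 and 0.82 at 8 nM, and 1.49, 1.39 and 1.35 at 80 nM. The 80 nM arrays lay above all others, while the 8 nM and untreated arrays overlapped. The change was 0.55 ± 0.09 (1.46-fold, adjusted p = 0.0012), under the fold limit, and 0.01 ± 0.09 at 8 nM (adjusted p = 0.94), or −0.08 without 8 nM array 2. RRN3, which recruits the polymerase to the promoter, had levels of 0.40, 0.57 and 0.42 untreated, 0.57, 0.59 and 0.66 at 8 nM, and 1.02, 0.93 and 1.01 at 80 nM. All 80 nM arrays of RRN3 lay above all other arrays, with a change of 0.52 ± 0.08 (1.44-fold, adjusted p = 0.00053), but its 2 other probes gave −0.41 and −0.75.

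Most box C/D particles guide methylation of ribosomal RNA. None of their 4 proteins examined passed the adjusted p at either concentration, which did not hold in every alternative. FBL, the methyltransferase, had levels of 7.68, 7.61 and 7.64 untreated, 7.28, 7.71 and 7.27 at 8 nM, and 7.33, 7.52 and 7.49 at 80 nM. At 8 nM array 2 was the highest of all arrays and the other 2 the lowest of all, so the groups overlapped, whereas the 80 nM arrays all lay below the untreated ones. The change of FBL was −0.22 ± 0.12 at 8 nM (adjusted p = 0.27, 95% interval −0.51 to 0.06) and −0.19 ± 0.12 at 80 nM (adjusted p = 0.22, interval −0.48 to 0.09). The scaffold proteins NOP56 and NOP58 stood at −0.33 and −0.28 at 80 nM, with adjusted p = 0.064 and 0.15, and RRP9, a U3-specific protein, at −0.08. At 8 nM RRP9 was lower on every array than untreated (−0.34 ± 0.11, adjusted p = 0.08). Without array 2 of the 8 nM group all 4 passed the adjusted p at 8 nM, with −0.37 ± 0.07 for FBL (adjusted p = 0.017), −0.34 for NOP56 (0.041), −0.49 for NOP58 (0.0071) and −0.45 for RRP9 (0.011). FBL also passed at 8 nM with quantile normalization (−0.26, adjusted p = 0.038) and with the authors' log2 values (−0.24, adjusted p = 0.043), and at 80 nM with both (−0.29 and −0.28, adjusted p = 0.0066 each). RRP9 passed at 8 nM with normexp, with quantile normalization and with the authors' log2 values. None of the 4 passed at 8 nM without array 1 or without array 3 of that group. At 80 nM between 1 and 3 of the 4 passed in 7 of the alternatives, and NOP56 was called lower with spike-in scaling (−0.61, adjusted p = 0.029).

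In the box H/ACA group, whose particles guide pseudouridine formation, DKC1 alone differed by adjusted p at 80 nM. DKC1, the pseudouridine synthase, had levels of 4.58, 4.48 and 4.52 untreated, 4.33, 4.60 and 4.41 at 8 nM, and 4.82, 4.75 and 4.83 at 80 nM. The 80 nM arrays were above all others, and the change was 0.28 ± 0.09 (1.21-fold, adjusted p = 0.024), with an interval of 0.08 to 0.48. GAR1, another core protein of this particle, was among the factors that changed least: its levels were 4.54, 4.56 and 4.54 untreated, 4.33, 4.52 and 4.30 at 8 nM, and 4.57, 4.52 and 4.60 at 80 nM. The untreated and 80 nM arrays of GAR1 overlapped, with a difference of 0.02 ± 0.08 and an interval of −0.16 to 0.20. The other core proteins stood at −0.29 (NHP2, adjusted p = 0.078) and 0.06 (NOP10) and the chaperone NOLC1 at 0.09. For all 5 proteins of this group the interval lay inside the fold limits at both concentrations. GAR1 was lower at 8 nM without array 2 of that group by adjusted p (−0.23 ± 0.06, adjusted p = 0.035).

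The 4 proteins of the nucleolar group went in different directions at 80 nM. NCL (nucleolin), which binds the nascent precursor, had levels of 6.98, 7.02 and 6.97 untreated, 6.72, 7.16 and 6.77 at 8 nM, and 7.40, 7.32 and 7.41 at 80 nM. The 80 nM arrays lay above all others, with a change of 0.38 ± 0.12 (1.30-fold, adjusted p = 0.02). NPM1 (nucleophosmin), a histone and assembly chaperone, had levels of 8.86, 8.72 and 8.74 untreated, 8.47, 8.88 and 8.49 at 8 nM, and 8.65, 8.66 and 8.73 at 80 nM. The groups of NPM1 overlapped, and its difference at 80 nM was −0.09 ± 0.12 (adjusted p = 0.51, interval −0.36 to 0.17). GNL3 (nucleostemin), a GTPase of the nucleolus, was lower at 80 nM (−0.39 ± 0.10, adjusted p = 0.01) and near the untreated level at 8 nM (−0.02). LYAR was lower at each concentration by adjusted p, with −0.36 at 8 nM and −0.25 ± 0.09 (adjusted p = 0.036) at 80 nM. Without array 2 of the 8 nM group, NCL (−0.25 ± 0.06, adjusted p = 0.033) and NPM1 (−0.30 ± 0.07, adjusted p = 0.028) were lower at 8 nM by adjusted p, and LYAR was at −0.43.

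Of the 15 small subunit factors, 3 (20.0%) fell at 80 nM (RCL1, DDX10 and UTP20) and none rose, where 16.2% of all genes were called lower and 18.5% higher. By adjusted p alone 4 of the 15 were lower (25.1% of all genes) and 2 higher (32.6% of all genes). The additional lower one was RRP12, needed for export and maturation of the subunit, with 0.85, 0.80 and 0.79 at 80 nM against 1.35, 1.32 and 1.45 untreated (−0.56 ± 0.09, adjusted p = 0.00093). The 80 nM arrays of RRP12 lay below all others. PNO1, which works beside the endonuclease NOB1 in the last cut of the 18S precursor, had levels of 0.39, 0.88 and 0.66 untreated, 0.42, 0.51 and 0.63 at 8 nM, and 1.24, 1.12 and 1.28 at 80 nM. Its untreated arrays were the most scattered among the small subunit factors (SD 0.24), and all 80 nM arrays lay above them (0.57 ± 0.13, 1.48-fold, adjusted p = 0.0048). NOB1 itself differed by 0.07 ± 0.08 (interval −0.12 to 0.26). PNO1 and RRP12 were chosen for these per-array values after their changes were seen.

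The 4 proteins of the small subunit group that bind the precursor while it is being transcribed (UTP4, WDR43, WDR75 and HEATR1) stood between −0.18 and 0.23 at 80 nM, and HEATR1 alone passed the adjusted p (0.21 ± 0.07, adjusted p = 0.028). Among the factors with the smallest differences were BYSL, a late assembly factor, and IMP4, a Brix-domain protein that binds the U3 particle. BYSL had levels of 3.67, 3.65 and 3.61 untreated, 3.45, 3.95 and 3.56 at 8 nM, and 3.56, 3.63 and 3.68 at 80 nM, a difference of −0.02 ± 0.12 at 80 nM with an interval of −0.30 to 0.26. IMP4 had levels of 3.21, 3.13 and 3.23 untreated, 3.11, 3.19 and 3.07 at 8 nM, and 3.08, 3.13 and 3.23 at 80 nM, a difference of −0.05 ± 0.08 with an interval of −0.22 to 0.13. The groups of both genes overlapped. NOP14, a processome protein, stood at −0.16 at 80 nM, and LTV1 and TSR1, which act late in small subunit assembly, at −0.07 and −0.05. TSR1 was at −0.33 ± 0.13 at 8 nM (adjusted p = 0.14), and without 8 nM array 2 at −0.50 ± 0.07 (adjusted p = 0.0053).

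Of the 14 large subunit factors, 2 (14.3%) fell at 80 nM (SDAD1 and PPAN) and none rose, where 16.2% of all genes were called lower and 18.5% higher. By adjusted p alone 6 of the 14 were lower (25.1% of all genes) and 2 higher (32.6% of all genes). RRS1, which helps to install the 5S ribonucleoprotein, was at 2.75, 2.72 and 2.72 on the 80 nM arrays against 3.18, 3.33 and 3.1 untreated (−0.47 ± 0.12, adjusted p = 0.0098). RRS1 was given per array after its change was seen. BRIX1, the Brix-domain protein of the large subunit, was lower by adjusted p at 80 nM (−0.34 ± 0.08, adjusted p = 0.0049) and at −0.25 ± 0.08 at 8 nM (adjusted p = 0.07). The 80 nM arrays of both lay below all untreated arrays. The partners of BOP1 changed less than BOP1: PES1 stood at −0.27 at the lower concentration (adjusted p = 0.064) and −0.18 at the higher (adjusted p = 0.084), and WDR12 at −0.09 and −0.06. The difference between the partners was not tested.

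The RNA helicases of this group did not go the same way. DDX21, which also binds ribosomal gene chromatin, had levels of 3.95, 4.14 and 4.11 untreated, 4.01, 3.89 and 4.33 at 8 nM, and 4.65, 4.50 and 4.59 at 80 nM. Its 80 nM arrays lay above all others (0.51 ± 0.12, 1.43-fold, adjusted p = 0.0061), and it too was given per array after its change was seen. DDX18, a helicase of early large subunit particles, was lower by adjusted p at 80 nM (−0.27 ± 0.10, adjusted p = 0.046). NOP2, a methyltransferase of the 28S RNA, was higher (0.37 ± 0.09, adjusted p = 0.006). EBNA1BP2, an assembly factor of the large subunit, was among those that changed least, with levels of 6.31, 6.19 and 6.18 untreated, 5.95, 6.36 and 6.04 at 8 nM, and 6.19, 6.16 and 6.21 at 80 nM. Its groups overlapped, and the interval of its difference at 80 nM was −0.29 to 0.21. The remaining changes at 80 nM were NIP7 (0.14), NOP16 (0.13) and MRTO4, which resembles a protein of the ribosomal stalk (−0.05).

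**Figure D4:**
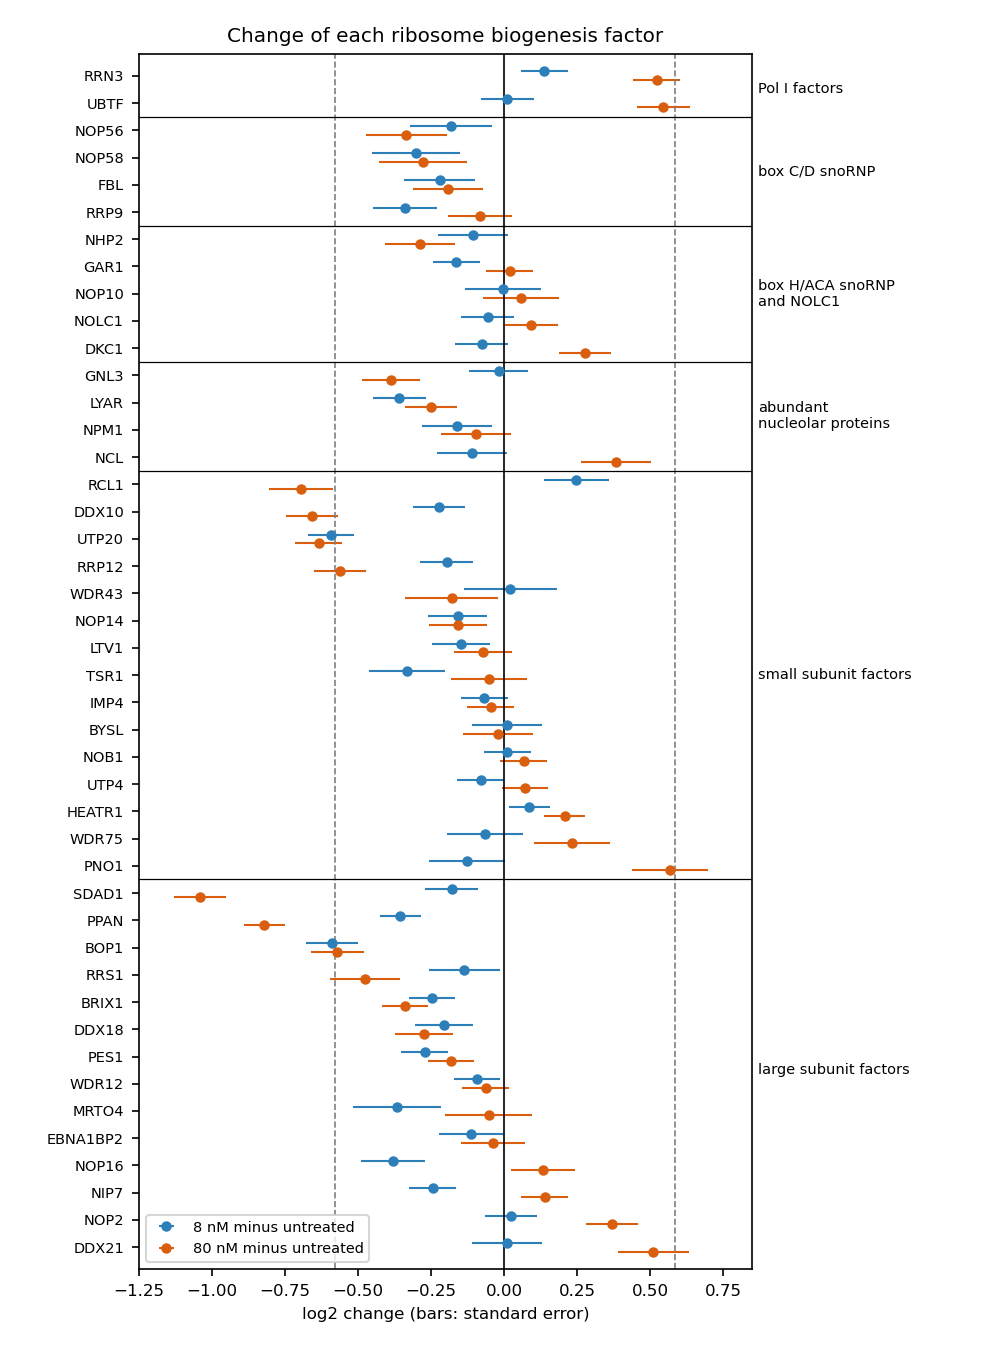
Log2 change against untreated cells (horizontal axis) of each of the 44 factors, grouped by role, at 8 nM (blue) and 80 nM (orange), with standard errors. Dashed lines are the fold limits of 0.67 and 1.5, and the orange points of 5 genes and the blue points of 2 lie beyond the lower line, none beyond the upper.

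Several factors had more than 1 probe, and the probes did not always move together. For each gene the probe with the highest mean was used, 44 of the 54 probes in all. The other SDAD1 probe stood at 0.19 at 80 nM (adjusted p = 0.12) against −1.04 on the probe used, and the mean of both (−0.43) was not called. RRN3 had 3 probes, with 0.52 on the one used and −0.41 (adjusted p = 0.2) and −0.75 (adjusted p = 0.0031) on the others, so its direction depends on the probe. For DDX10 the other probe fell further, to −1.98 at 80 nM (adjusted p = 1.8e-05), and was already at −0.64 (adjusted p = 0.035) at 8 nM. The other RCL1 probe was at −0.46 (adjusted p = 0.00078). NOP56 gave −0.33, −0.32 and 0.21, NOP14 gave −0.16 and −0.51, and NPM1 gave −0.09, 0.06 and 0.13. Which transcripts each probe detects was not tested.

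**Figure D5:**
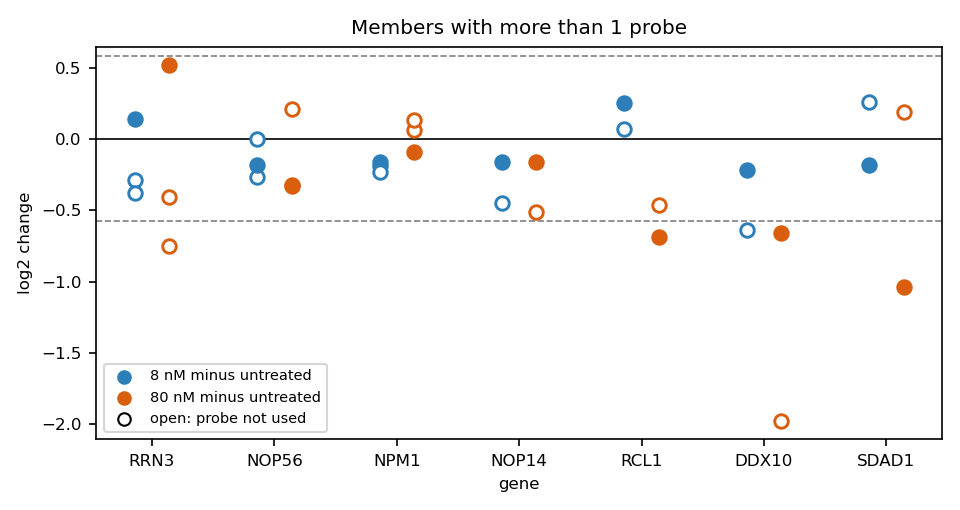
Log2 change of every probe of the 7 factors with more than 1 probe that passed the filter, at 8 nM (blue) and 80 nM (orange). Filled points are the probe used for the gene, open points the others, and dashed lines the fold limits. The SDAD1 and RRN3 probes lie on opposite sides of 0 at 80 nM, and both DDX10 probes lie below the lower line.

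In the direct comparison of 80 nM with 8 nM, RCL1 and SDAD1 were lower, PNO1 was higher, and the other 41 factors were not called. Over all genes 14.2% were called lower and 18.9% higher. RCL1 stood at 0.521-fold of its 8 nM level (−0.94 ± 0.11, adjusted p = 0.00017), SDAD1 at 0.551-fold (−0.86 ± 0.09, adjusted p = 0.0001) and PNO1 at 1.62-fold (0.70 ± 0.13, adjusted p = 0.0017). By adjusted p alone 7 factors were lower at 80 nM than at 8 nM (22.5% of all genes) and 9 higher (34% of all genes), and by the fold limit with an unadjusted p 3 passed (33.8% of all genes). The higher ones included UBTF (0.53), NOP16 (0.51), DDX21 (0.50), NCL (0.49), NIP7 (0.38) and DKC1 (0.35). NOP16 and NIP7, both large subunit factors, were below the untreated arrays at 8 nM (−0.38 and −0.24, adjusted p = 0.06 and 0.081, or −0.48 and −0.19 without 8 nM array 2, adjusted p = 0.014 and 0.089) and near or above them at 80 nM. UTP20 (−0.04 ± 0.08, interval −0.22 to 0.14) and BOP1 (0.02 ± 0.09, interval −0.20 to 0.23) differed least between the concentrations among the factors called. Without array 2 of the 8 nM group 6 factors were called, 4 higher and 2 lower, where 7137 of all genes were called, 43.8% of them lower. By adjusted p 19 factors were then higher, and the share of all genes was not worked out for that count. The comparison also crosses the slides.

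The other genes of ribosome biogenesis were taken as 6 lists of 146 genes, of which 145 were tested. At 8 nM, 2 of them were called lower (1.48% of all genes) and none higher (3.74% of all genes). By adjusted p alone 10 were lower (4.96% of all genes) and none higher (7.26% of all genes), with a median of −0.12. The 2 were NAF1, an assembly factor of box H/ACA particles (−0.95 ± 0.25, adjusted p = 0.043), and RRP7A, a small subunit factor (−0.61 ± 0.10, adjusted p = 0.0061). The largest values upward, POLR1E (0.30) and RSL24D1 (0.27), did not pass (adjusted p = 0.091 and 0.13). At 80 nM, 11 were called lower and 7 higher, 12.4% in all, against 34.6% of all genes (16.2% lower and 18.5% higher). By adjusted p alone 39 were lower (25.1% of all genes) and 22 higher (32.6% of all genes), with a median of −0.12. SURF6, a nucleolar protein (−1.47 ± 0.08, adjusted p = 1.9e-06), and SBDS, which frees the large subunit for translation (−1.13 ± 0.08, adjusted p = 8.7e-06), fell most. UTP25 (0.95 ± 0.08, adjusted p = 2.7e-05) and WDR36 (0.84 ± 0.12, adjusted p = 0.00039), both of the small subunit processome, rose most. By list the counts at 80 nM were 1 higher of 18 RNA polymerase I subunits and factors, 2 higher and 2 lower of 36 other processome factors, and 1 lower of 9 late small subunit factors. In the remaining lists 2 were higher and 6 lower of 48 other large subunit factors, 1 higher and 1 lower of 23 exosome and RNase MRP genes, and 1 higher and 1 lower of 11 assembly factors of the small nucleolar particles.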

How the data were processed

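A2780 cells were measured untreated and after 8 or 80 nM DIG-MSK on 9 arrays. The authors scanned each array with Feature Extraction 10.7.3.1, per the file headers. The deposited processed intensity has the local background removed and carries no scaling from array to array. A deposited table of log2 values, close to the log2 median signal of each array (correlations 0.99861 to 0.99983), served as an alternative. Here log2 of the processed intensity was taken minus the 75th percentile of the array (831.71 to 1170.17). Control and outlier spots were left out, and spots of a probe were averaged. Probes had to be well above background throughout at least 1 group (26637 probes), and the probe with the highest mean stood for its gene. limma 3.58.1 in R 4.3.3 fitted a mean per group to the 9 arrays, with Benjamini-Hochberg adjustment over 21606 genes. Of these, 14216 carried a gene symbol, and the others were kept under the name of their probe target. The shares of all genes include both. The number of arrays limits the precision. The fit was tested on simulated data. The mean signal assumed for normexp was not in the files, so the median signal was used. The genes given per array were those called at 8 nM, the 6 largest and 4 smallest changes at 80 nM, and UBTF, RRN3, FBL, NCL, NPM1 and DKC1. PNO1, RRP12, RRS1 and DDX21 were given per array outside that rule, after their changes were seen. The factors, lists and rules were chosen with earlier results of these data known. Same-numbered arrays deviated together with correlations between −0.1228 and 0.1602, so the numbers were not taken as pairs. Alternatives were other background corrections, scalings, filters, probe summaries, fits and thresholds, and each array left out in turn.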

Additional observations from a re-analysis of the deposited data

How the results depend on the processing

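The count of factors called at 8 nM (2) was 0 with normexp, with quantile, median or spike-in scaling, and with the authors' log2 values, and 4 with the adjusted p alone. Over all genes the count at 8 nM (1128) was 630, 1147, 1155, 376, 775 and 2641 in that order. The count at 80 nM (5) was 8 with normexp, 8 with the authors' log2 values, 10 with spike-in scaling, 3 with the mean of a gene's probes and 20 with the adjusted p alone. Over all genes the count at 80 nM (7483) was 4654, 5619, 6702, 7391 and 12469 in that order. The count for 80 nM against 8 nM (3) was 7 with spike-in scaling and 16 with the adjusted p alone, where that over all genes (7135) was 6303 and 12208. The median change at 80 nM (−0.07) was −0.12 with scaling to the median and −0.34 with spike-in scaling. For 80 nM against 8 nM (0.07) it was 0.0013 with quantile normalization, −0.041 with scaling to the median and −0.29 with spike-in scaling. Spike-in scaling, which rests on 10 probes, raised the share of lower calls among all called genes at 80 nM from 46.6% to 73.3%, and for 80 nM against 8 nM from 42.9% to 79.5%, while at 8 nM it was 7.18% against 28.4%. With spike-in scaling the median of all genes for 80 nM against 8 nM moved from 0.11 to −0.24. Leaving out each array in turn gave 0 to 2 calls at 8 nM, 5 to 7 at 80 nM and 3 to 6 for 80 nM against 8 nM (6 without 8 nM array 2). Over all genes the calls numbered 936 to 1392, 7123 to 7617 and 6916 to 7183 (7137 without 8 nM array 2). The medians of the factors then lay between −0.23 and −0.09, between −0.10 and −0.06, and between 0.006 and 0.15. The cause was not tested in any of these. With the replicate block the counts were 2, 5 and 3, and the replicate numbers do not mark pairs. At 80 nM SDAD1 and RCL1 were not called with the mean of their probes, and PPAN, DDX10 and UTP20 were called in every alternative run. The following counts cover only the factors given per array, RRS1 apart. In them 987 values kept their side of the threshold and direction, 19 fell short, 24 passed newly and 53 changed sign. Of these 53, 51 had an adjusted p of 0.05 or above before and after, from reported values of at most 0.18 in size, and the other 2 were RRN3 with the mean of its probes. Factors outside these counts changed sign too. With spike-in scaling HEATR1 moved from 0.21 to −0.07 at 80 nM. For 80 nM against 8 nM the same scaling moved, among others, NOP2 from 0.34 to −0.01 and MRTO4 from 0.31 to −0.04. The reported values of HEATR1 and NOP2 had passed the adjusted p. A slide block was not run, since no comparison had a slide with both of its groups and another slide with either. The filters on dim probes changed no count of called factors. By adjusted p alone, the factors lower at 8 nM numbered 3 without a filter and 5 with a filter on all 9 arrays, against 4, and without a filter those at 80 nM were 6 higher and 10 lower, against 8 and 12, and 6 were lower for 80 nM against 8 nM, against 7.

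For the factors given per array, the values that changed sign were as follows. With the mean of a gene's probes RRN3 was at −0.17 at 8 nM, −0.21 at 80 nM and −0.038 for 80 nM against 8 nM, SDAD1 at 0.039 at 8 nM and NPM1 at 0.030 at 80 nM. With the authors' log2 values DKC1 was at 0.020 at 8 nM, GAR1 at −0.042 and EBNA1BP2 at 0.0076 at 80 nM, and for 80 nM against 8 nM FBL was at −0.038, NPM1 at −0.068, IMP4 at −0.010 and BOP1 at −0.075. With spike-in scaling IMP4 was at 0.0069 at 8 nM and GAR1 at −0.26 at 80 nM, and for 80 nM against 8 nM FBL was at −0.32, GAR1 at −0.17, NPM1 at −0.28, IMP4 and BOP1 at −0.33 each and EBNA1BP2 at −0.28. With normexp BYSL was at −0.0069 at 8 nM, GAR1 at −0.034 at 80 nM and BOP1 at −0.051 for 80 nM against 8 nM. With quantile normalization BYSL was at 0.025 at 80 nM, and for 80 nM against 8 nM FBL was at −0.030, NPM1 at −0.067, IMP4 at −0.018 and BOP1 at −0.032. With scaling to the median GAR1 was at −0.037 at 80 nM, and for 80 nM against 8 nM FBL was at −0.080, NPM1 at −0.039, IMP4 at −0.085, BOP1 at −0.089 and EBNA1BP2 at −0.031. Leaving out each array in turn, the 8 nM change spanned −0.076 to 0.073 for UBTF, −0.14 to 0.11 for BYSL and −0.12 to 0.10 for DDX21, and the 80 nM change −0.050 to 0.0098 for BYSL and −0.060 to 0.0042 for EBNA1BP2. For 80 nM against 8 nM the span was −0.048 to 0.17 for FBL, −0.0051 to 0.20 for NPM1, −0.019 to 0.056 for IMP4, −0.13 to 0.12 for BYSL, −0.042 to 0.12 for BOP1 and −0.0082 to 0.20 for EBNA1BP2.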
